A study of Rattus norvegicus with 4 samples.

Results

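The mitochondrial respiratory chain and ATP synthase were followed through every probe set of a rat oligonucleotide array whose only gene symbol begins with Nduf, Sdha to Sdhd, Uqcr, Cox4 to Cox8 or Atp5, or is Cyc1 or Cycs. This rule uses names and no measured value. It found 56 of the 4737 genes with a symbol of their own on the array, in 102 of 8799 probe sets, and none of them was for Cycs, cytochrome c. Of the 102 probe sets, 46 belong to 26 genes named for complex I, 1 to complex II, 7 to 4 genes of complex III, 27 to 13 genes named for complex IV, 17 to 10 genes of the ATP synthase, which is complex V, and 4 to the assembly factors Ndufaf3 and Sdhaf2. The members of complex IV include the pseudogene Cox6c-ps1. Another 7 probe sets carry a fitting symbol together with others and were left out.

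The arrays measured RNA of the myometrium, the layer of smooth muscle that contracts the uterus, from 60-day-old female rats whose ovaries had been removed a week earlier. The first pair of groups received estradiol benzoate, from which estradiol is released over time, at 10 µg/kg under the skin, or vehicle as the control, and was examined after 24 h. The other pair received the same agent or vehicle and was examined after 6 h. Each of the 4 groups is 1 array of RNA pooled from 6 animals, so no group has a replicate error, and the spread between animals was not measured. In bulk tissue, fewer cells of a type and less RNA per cell cannot be told apart.

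The respiratory chain passes electrons from NADH through complex I, or from succinate through complex II, to complex III and, by way of cytochrome c, to oxygen at complex IV. Complexes I, III and IV pump protons across the inner mitochondrial membrane, and the ATP synthase lets them return while it makes ATP. Most of the subunits are encoded in the nucleus, as are all members here, and a core is encoded in mitochondrial DNA. The contracting uterus depends on this ATP, and estrogen makes the myometrium grow.

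Values are scaled signals, that is probe set intensities at a common trimmed mean, and a probe set counts as measured where it exceeds the floor, the 40th percentile of an array's signals. The floors lay between 89.5 and 108 signal units, and median signals between 144 and 169. Of 8740 probe sets that are no Affymetrix controls, 6157 were measured on at least 1 array, as were 96 of the 102 members, which hold a probe set of each of the 56 genes. On all 4 arrays 88 members were above the floor, and 6 were on none. A difference is given as log2, and a call means at least 2-fold with the brighter array above its floor. A fold against an array at its floor is a lower limit and is given as at least that size.

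Some facts of the whole series bear on every value. Of 11 measured probe sets of the estrogen-induced genes Igf1, Pgr, S100g and Hsd11b2, 9 were at least 2-fold higher with estradiol at 24 h, but 9 were at least 2-fold lower on the array labelled estradiol at 6 h. Because the 6 h labels are contradicted by these genes, the 6 h arrays are named by label throughout. Both 24 h arrays were scanned on 1 day and both 6 h arrays on another, so the effects of time and of scan day cannot be told apart. Control transcripts spiked into the samples gave 2.32-fold more signal on the 24 h arrays than on the 6 h arrays, and 1.35-fold more on the estradiol than on the control array of 24 h. The wash record of the 24 h control array holds an error. Ratios of 3′ to 5′ signal, which grow as RNA degrades, were 1.04 to 1.14 for Gapdh and 1.24 to 1.38 for Actb. All 13 smooth muscle probe sets, of genes such as Myh11 and Acta2, were above the floor on all 4 arrays.

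As a group, the members were brighter at 24 h than at 6 h, under either label, and the median member differed little between estradiol and control at either time. Both 24 h arrays lay above both 6 h arrays for 47 of the 96 measured members, 49.0%, against 14.2% of all measured probe sets. The opposite order, both 24 h arrays below both 6 h arrays, was seen for 5 members, 5.21%, against 24.4% of all. Both 24 h floors lay below both 6 h floors, so a probe set at its floor on both 24 h arrays counts as this opposite order. Among probe sets above the floor on all 4 arrays, it was seen for 4.55% of members and 19.6% of all. The order with both 24 h arrays above was similarly frequent in each large complex. It held for 22 of 43 measured probe sets of complex I, 13 of 25 of complex IV, 8 of 16 of complex V and 3 of 7 of complex III. Of the 56 genes, 36 showed it in at least 1 measured probe set and 22 in every measured one. A gene with several probe sets, as 28 of the 56 have, can more easily show it in at least 1. The share over all genes was not counted.

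**Figure D1:**
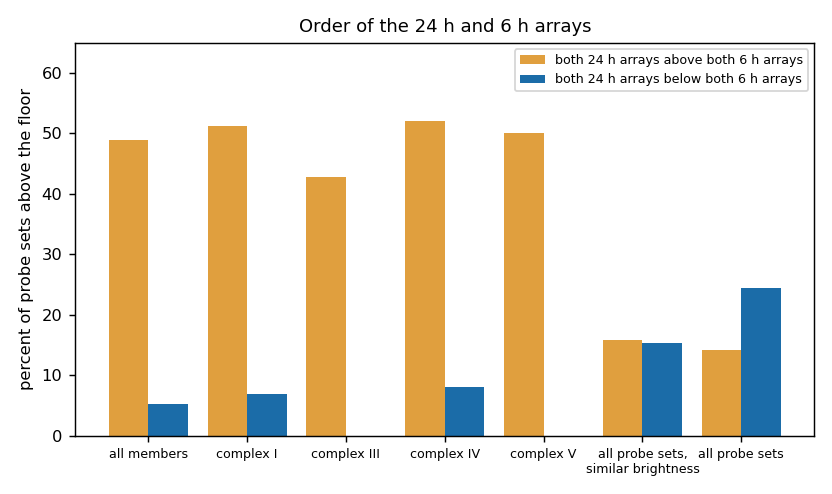
Percent of measured probe sets, on the vertical axis, for which both 24 h arrays lay above both 6 h arrays (orange) or below them (blue), for the members, for complexes I, III, IV and V, for probe sets of similar brightness and for all probe sets. The orange bar is 49.0% for the members and 14.2% for all probe sets.

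The share was lower among all probe sets of like brightness, the members included. Among the 1079 probe sets whose mean signal lies within the middle quartiles of the members, between 780 and 2795 signal units, both 24 h arrays were above in 15.8% and below in 15.4%. Among members above the floor on all 4 arrays the order held for 45 of 88, 51.1%, against 16.7% of all such probe sets. The pairs of the same label share no array, so the size of the difference can be read in each. The median member was 0.32 log2 units brighter on the 24 h than on the 6 h estradiol-labelled array. All measured probe sets had a median of -0.20 there, the value set by the ratio of these arrays' floors. The median member was 0.44 log2 units brighter on the 24 h than on the 6 h control-labelled array, where all had a median of -0.07. Both pairs had the 24 h array brighter for 52 members, 54.2%, against 17.8% of all, and neither pair for 7 members, 7.29%, against 34.2%. Among probe sets above the floor on all 4 arrays, neither pair had it brighter for 4.55% of members, against 28.7% of all.

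**Figure D2:**
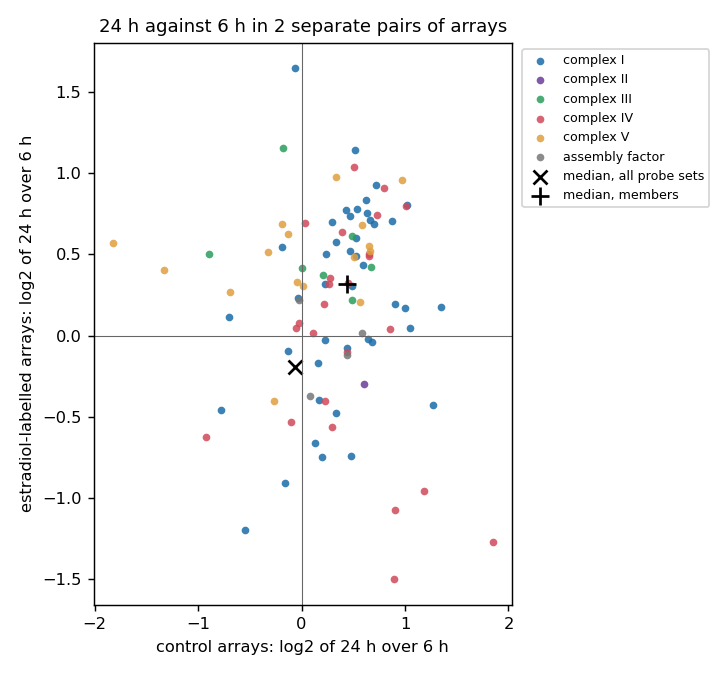
Log2 difference of 24 h over 6 h for each of the 96 measured member probe sets, between the control-labelled arrays on the horizontal axis and between the estradiol-labelled arrays on the vertical axis, coloured by complex. The plus sign marks the members' medians of 0.44 and 0.32, and the cross those of all measured probe sets, -0.07 and -0.20.

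The members' share of the summed signal of all probe sets was 3.66% on the estradiol array and 3.51% on the control array at 24 h, and 3.13% on the estradiol-labelled and 2.79% on the control-labelled array at 6 h. Both 24 h arrays thus devoted the larger share to them. A limma fit of all 4 arrays with treatment and time as terms, which leaves 1 residual degree of freedom, called 0 of 96 members and 0 of 6157 probe sets, 0%, for time at an adjusted p under 0.05. Unadjusted p under 0.05 was reached by 1 member, Atp5pd, and by 220 of all probe sets. The median time coefficient was 0.31 log2 units over members and -0.10 over all. The fit called 0 members and 0 probe sets, 0%, for treatment as well, with 2 members and 104 of all probe sets at an unadjusted p under 0.05. The treatment term averages the 24 h difference with a 6 h difference whose labels the estrogen-induced genes contradict, so differences of opposite sign at the 2 times cancel in it. Smooth muscle markers were brighter at 24 h too, with both 24 h arrays above both 6 h arrays for 9 of 13 probe sets. Their summed signal was 152479 with estradiol and 139327 with vehicle at 24 h, and 96714 on the estradiol-labelled and 119136 on the control-labelled array at 6 h. The part of the amount of muscle, of the spiked-in brightness and of the scan day in the members' order was not tested.

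Promoters of the members were searched for motifs of factors known to act on nuclear genes for mitochondria, NRF1, YY1 and the estrogen-related receptors. RefSeq's table for the build GRCr8 holds promoters, from 250 bases before to 50 after the start, of 47 of the 56 genes and 33469 in all. Both strands were searched. The YY1 letters AAGATGGCG were in 7 of the 47, 14.9%, against 1.73% of all promoters, namely those of Ndufa6, Ndufa9, Ndufb8, Ndufs4, Ndufs6, Ndufs7 and Atp5pf, each time on the gene's own strand. In 6 of these genes, all of complex I, the letters begin between 5 and 24 bases after the start, and they contain ATG. In Atp5pf they begin at position -111. The NRF1 letters GCGCATGCG were in Atp5po alone, 2.13% against 1.52% of all, and the letters TCAAGGTCA of the estrogen-related receptors in 0 of 47, against 0.433%. The shorter AGGTCA, which lies within those letters, was in 12 of 47, 25.5%, against 16.2%. A match is a run of letters and not a shown site of binding. The 4 promoters below are given in lower case with the match in capitals, YY1 for the first 3 and NRF1 for Atp5po, where both strands match and the capitals cover both. They belong to genes described further on, 3 of which (Ndufa6, Ndufb8 and Atp5po) have probe sets with both 24 h arrays above both 6 h arrays.
Ndufa6, chr7:115750268-115750567, minus strand: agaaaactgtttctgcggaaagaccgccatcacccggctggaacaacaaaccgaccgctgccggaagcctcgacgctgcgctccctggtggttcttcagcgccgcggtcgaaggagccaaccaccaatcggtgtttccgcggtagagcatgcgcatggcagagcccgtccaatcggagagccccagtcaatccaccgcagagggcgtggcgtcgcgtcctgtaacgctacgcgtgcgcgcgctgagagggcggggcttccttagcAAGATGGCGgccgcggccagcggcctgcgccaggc
Ndufb8, chr1:253362887-253363186, minus strand: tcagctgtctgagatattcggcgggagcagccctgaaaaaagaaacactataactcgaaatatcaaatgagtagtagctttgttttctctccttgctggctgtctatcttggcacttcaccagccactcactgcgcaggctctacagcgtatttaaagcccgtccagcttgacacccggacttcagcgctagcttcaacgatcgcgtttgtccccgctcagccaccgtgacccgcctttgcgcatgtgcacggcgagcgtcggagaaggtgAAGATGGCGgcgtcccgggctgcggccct
Atp5pf, chr11:37375052-37375351, minus strand: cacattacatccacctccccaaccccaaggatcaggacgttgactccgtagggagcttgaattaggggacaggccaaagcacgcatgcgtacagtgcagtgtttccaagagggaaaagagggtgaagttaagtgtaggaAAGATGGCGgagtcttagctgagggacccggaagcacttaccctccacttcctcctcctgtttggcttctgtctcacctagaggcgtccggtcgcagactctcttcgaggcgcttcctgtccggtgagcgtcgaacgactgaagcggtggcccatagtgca
Atp5po, chr11:44657434-44657733, minus strand: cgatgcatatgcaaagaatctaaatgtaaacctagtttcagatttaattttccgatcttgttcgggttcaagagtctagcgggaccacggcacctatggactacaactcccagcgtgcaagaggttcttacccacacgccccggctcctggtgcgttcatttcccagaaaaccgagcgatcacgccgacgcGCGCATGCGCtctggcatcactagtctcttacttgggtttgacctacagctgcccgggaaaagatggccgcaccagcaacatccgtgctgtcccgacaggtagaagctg

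The comparison with the control at 24 h asks what the chain's genes expressed a day after estradiol. Of the 96 measured members 6 were at least 2-fold higher with estradiol, against 8.3% of all measured probe sets, and 4 were at least 2-fold lower, against 8.36%. The median member differed by 0.05 log2 units, and the median of all probe sets was -0.17, the value set by the ratio of the 2 floors. By complex the medians were -0.07 for I, 0.28 for III, -0.11 for IV and 0.42 for V. All 7 probe sets of complex III and 12 of 16 of complex V were brighter with estradiol, against 18 of 43 of complex I and 9 of 25 of complex IV. Over all measured probe sets 37.4% were brighter with estradiol, where a probe set at its floor on both 24 h arrays counts as dimmer. The share was 39.4% of all probe sets above the floor on all 4 arrays. Among the 1079 of similar brightness to the members it was 46.0%. At 6 h, 4 members were at least 2-fold higher on the array labelled estradiol, against 6.94% of all, and 0 were lower, against 5.38%. The 6 h median was 0.10 over members and -0.07 over all. On the 24 h control, against the 6 h control, 8 members were at least 2-fold higher, where 8.43% of all were, and 2 lower, where 9.45% of all were. In all, 17 probe sets of 15 genes passed 2-fold in at least 1 of these comparisons, and 79 of the 96 passed in none. The share of all measured probe sets that passed in at least 1 was not counted.

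**Figure D3:**
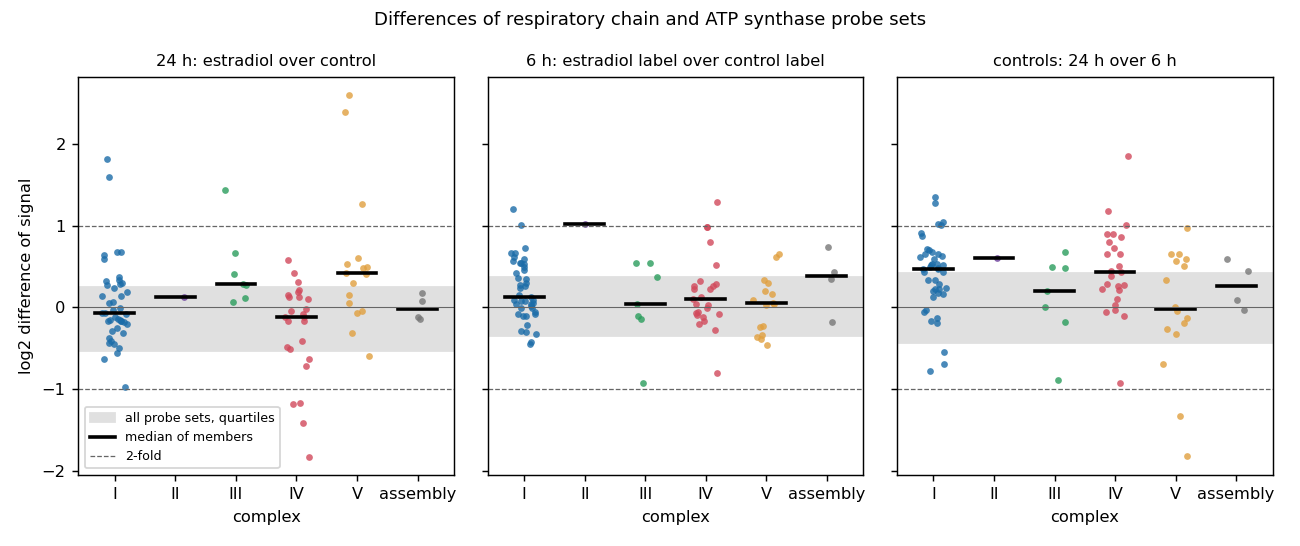
Log2 difference of signal for each measured member probe set (points) by complex, in 3 panels for estradiol over control at 24 h, the estradiol over the control label at 6 h and the 24 h over the 6 h control, with each complex's median (bar), the middle quartiles of all measured probe sets (grey) and 2-fold (dashed), where a difference against an array at its floor is drawn at its bound. At 24 h the highest points are Atp5pb at 2.59 and Atp5pf at 2.38 in complex V, and the lowest is Cox7a2l at -1.83 in complex IV.

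In complex I the probe sets in this order included those of Ndufa3, Ndufa5, Ndufa9, Ndufb2, Ndufb9, Ndufb10 and Ndufs6. Ndufb8, an accessory subunit of the membrane arm on chromosome 1, was the brightest member of the complex by its mean over the 4 arrays, as such ranks are given throughout. One of its probe sets read 6574 with estradiol and 5596 with vehicle at 24 h, and 3457 on the estradiol-labelled and 3405 on the control-labelled array at 6 h. The 24 h arrays were both high and the arrays of a time lay close together. Another of its probe sets read 4834 with estradiol and 3014 with vehicle at 24 h, and 2191 and 2106 on the estradiol-labelled and control-labelled arrays at 6 h, which made the 24 h estradiol array 2.21-fold brighter than the 6 h one. Its dimmer probe sets went the other way, and the estradiol over control differences of its 4 probe sets at 24 h ran from -0.98 to 0.68.

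Ndufa4, named for complex I and now counted with complex IV, read 2676 with estradiol and 3015 with vehicle at 24 h, and 1533 on the estradiol-labelled and 1491 on the control-labelled array at 6 h. Both 24 h arrays were high, and the 24 h control was 2.02-fold brighter than the 6 h control. Ndufb3, an accessory subunit, read 1702 with estradiol and 2308 with vehicle at 24 h, and 1650 on the estradiol-labelled and 1118 on the control-labelled array at 6 h. The 24 h control was 2.06-fold brighter than the 6 h control, and the array labelled estradiol at 6 h lay near the estradiol array at 24 h. Ndufa6, an accessory subunit of chromosome 7 whose promoter is printed above, read 1719 with estradiol and 1930 with vehicle at 24 h, and 1531 on the estradiol-labelled and 963 on the control-labelled array at 6 h. Its difference between the controls was 2.005-fold in that probe set, and in a dimmer one it was 0.13 log2 units. Ndufa4l2, a relative of Ndufa4 known to be induced by low oxygen, has 5 measured probe sets. The one past 2-fold between the controls read 342 with estradiol and 503 with vehicle at 24 h, and 303 on the estradiol-labelled and 197 on the control-labelled array at 6 h. Between the controls, 3 of its probe sets were measured on both arrays, with differences of 0.33, 0.48 and 1.35, and the other 2 differed by at least 0.17 and at least 0.70.

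Among the Ndufs and Ndufv subunits, which sit in or on the arm that takes electrons from NADH, Ndufv3 and Ndufs8 passed 2-fold. Ndufv3, a small subunit on chromosome 20, read 185 with estradiol and 262 with vehicle at 24 h. At 6 h it read 249 on the estradiol-labelled array but 85.7, not above the floor, on the control-labelled one. That made it higher by at least 2.30-fold under the estradiol label at 6 h, and at least 2.42-fold higher on the 24 h than on the 6 h control. Its brighter probe set read 2579 with estradiol and 2601 with vehicle at 24 h, and 2623 on the estradiol-labelled and 1661 on the control-labelled array at 6 h, so that in both probe sets the 6 h control label was the low one. Ndufs8, which carries iron-sulfur clusters, read 512 with estradiol and 145 with vehicle at 24 h, and 473 on the estradiol-labelled and 235 on the control-labelled array at 6 h. It was 3.52-fold higher with estradiol at 24 h and 2.01-fold higher with that label at 6 h, the label the estrogen-induced genes go against. Its brightest probe set read 2557 with estradiol and 2320 with vehicle at 24 h, and 1716 on the estradiol-labelled and 1846 on the control-labelled array at 6 h, a difference of 0.14 log2 units at 24 h.

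Ndufb6, an accessory subunit on chromosome 5, was the one member at least 2-fold brighter on the 24 h estradiol array than on each other array, as were 1.59% of all measured probe sets. It read 2573 with estradiol and 851 with vehicle at 24 h, and 821 on the estradiol-labelled and 886 on the control-labelled array at 6 h. The difference with estradiol at 24 h was 3.02-fold. Its other probe set read 931 with estradiol and 1034 with vehicle at 24 h, and 559 on the estradiol-labelled and 747 on the control-labelled array at 6 h, a 24 h difference of -0.15. Thus the probe sets of Ndufb6 did not share the difference. Of 26 genes with several measured probe sets, 7 had probe sets over 1 log2 unit apart in at least 1 comparison, namely Ndufb6, Ndufb8, Ndufs8, Ndufa4l2, Cox6a2, Atp5pf and Atp5if1.

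**Figure D4:**
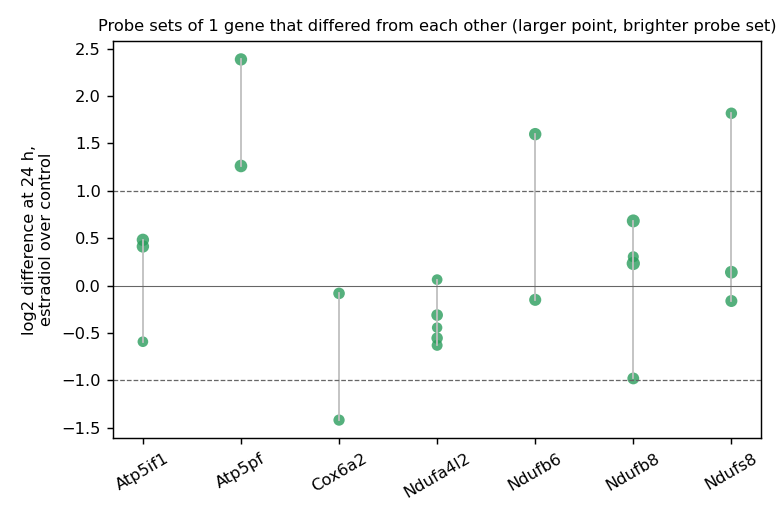
Log2 difference of estradiol over control at 24 h for each measured probe set of the 7 genes whose probe sets lay over 1 log2 unit apart in a comparison, with larger points for brighter probe sets, 2-fold dashed, and probe sets with 1 array at its floor drawn at their bound. Ndufs8 spans -0.16 to 1.82, Ndufb6 -0.15 to 1.597 and Ndufb8 -0.98 to 0.68.

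Complex II, which is also an enzyme of the tricarboxylic acid cycle, was represented by Sdha, its flavoprotein on chromosome 1. Sdha read 1811 with estradiol and 1663 with vehicle at 24 h, and 2226 on the estradiol-labelled and 1097 on the control-labelled array at 6 h. The 6 h control label was the low array, and the difference at 6 h was 2.03-fold. The assembly factors Sdhaf2, which helps attach the flavin to Sdha, and Ndufaf3, which helps build complex I, passed 2-fold in 0 of their 4 probe sets. Their differences at 24 h lay between -0.14 and 0.18.

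In complex III, Uqcrc2, a core protein on chromosome 1, was the member past 2-fold. Uqcrc2 read 2248 with estradiol and 829 with vehicle at 24 h, and 1585 on the estradiol-labelled and 1536 on the control-labelled array at 6 h. The 24 h control was the low array, and estradiol was 2.71-fold higher at 24 h. The brightest probe set of the complex was one of Uqcrfs1, the Rieske iron-sulfur protein, with 4697 with estradiol and 4488 with vehicle at 24 h, and 3627 on the estradiol-labelled and 3893 on the control-labelled array at 6 h. Cyc1, cytochrome c1, which hands electrons to cytochrome c, read 3746 with estradiol and 2818 with vehicle at 24 h, and 1678 on the estradiol-labelled and 3185 on the control-labelled array at 6 h. Here the array labelled estradiol at 6 h was the low one, at -0.92 log2 units against the control label, and the 24 h estradiol array was 2.23-fold brighter than it.

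Complex IV held the members lower with estradiol at 24 h. Cox7a2l, on chromosome 6, is known as a factor that joins complexes III and IV into supercomplexes, and its human counterpart was identified as an estrogen-responsive gene. Its first probe set read 1267 with estradiol and 4494 with vehicle at 24 h, and 3062 on the estradiol-labelled and 1248 on the control-labelled array at 6 h. Its second read 1797 with estradiol and 4029 with vehicle at 24 h, and 3498 on the estradiol-labelled and 1774 on the control-labelled array at 6 h. In both, the 24 h control and the 6 h array labelled estradiol were high and the other arrays low. With estradiol at 24 h they were 3.55-fold and 2.24-fold lower, and with that label at 6 h 2.45-fold and 1.97-fold higher. Between the controls, which share an array with each of these comparisons, the 24 h array was 3.601-fold and 2.27-fold brighter. Igf1, Pgr, S100g and Hsd11b2 were high on the arrays where Cox7a2l was low.

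The muscle isoforms of complex IV, Cox6a2 and Cox8b, known from heart and skeletal muscle, were also lower with estradiol at 24 h. Cox6a2 read 130 with estradiol and 348 with vehicle at 24 h, and 369 on the estradiol-labelled and 187 on the control-labelled array at 6 h. It was 2.68-fold lower at 24 h and 1.97-fold higher with the estradiol label at 6 h, with the same arrays high and low as for Cox7a2l. A second probe set of Cox6a2 read 440 with estradiol and 466 with vehicle at 24 h, and 352 on the estradiol-labelled and 342 on the control-labelled array at 6 h, a difference of -0.08 at 24 h. Cox8b read 64.0 with estradiol, not above the floor, and 202 with vehicle at 24 h, and 189 on the estradiol-labelled and 92.9, not above the floor, on the control-labelled array at 6 h. It was at least 2.26-fold lower with estradiol at 24 h. Its other probe set was above the floor on no array.

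Markers of other cell types were read beside these members. Of 9 measured probe sets of fat cell markers, 4 were at least 2-fold lower with estradiol at 24 h and 0 higher, and at 6 h 2 were higher with the estradiol label and 0 lower. Their summed signal was 3420 with estradiol and 9576 with vehicle at 24 h, and 6628 on the estradiol-labelled and 6325 on the control-labelled array at 6 h. Lpl, lipoprotein lipase, gave much of this, with 456 with estradiol and 2775 with vehicle at 24 h in 1 of its probe sets. At 6 h that probe set read 1222 on the estradiol-labelled and 565 on the control-labelled array. The fat cell probe sets past 2-fold at 24 h were of Lpl and Cfd, and those at 6 h were of Lpl alone. The median over the 9 was -0.60 at 24 h and -0.30 at 6 h. Plin1, the lipid droplet protein, was above the floor on no array. Of 6 measured probe sets of skeletal and heart muscle markers 1, of Acta1, the skeletal muscle actin, was 2-fold higher with estradiol at 24 h and 0 lower, and Actc1, Atp2a1, Myh4 and Tnni2 were above the floor on no array. Their summed signal was 10018 with estradiol and 4859 with vehicle at 24 h, and 3344 on the estradiol-labelled and 7367 on the control-labelled array at 6 h. Acta1 made most of it, and without Acta1 the sums were 2019 with estradiol and 2183 with vehicle at 24 h, and 1448 on the estradiol-labelled and 2098 on the control-labelled array at 6 h. Of 13 measured probe sets of macrophage and leukocyte markers 6 were at least 2-fold lower and 2 higher with estradiol at 24 h, with a median of -0.93, and 1 was higher and 1 lower with the label at 6 h. The antigen-presentation genes Cd74 and RT1-Da were among the lower ones at 24 h, and the higher ones were of Lyz2 and Coro1a. The summed signal of these markers was 8091 with estradiol and 12415 with vehicle at 24 h, and 9769 on the estradiol-labelled and 11990 on the control-labelled array at 6 h. Of 4 measured probe sets of endothelial markers, 1 was at least 2-fold lower and 0 higher with estradiol at 24 h. With the label at 6 h, 1 was lower and 0 higher. Of all measured probe sets 8.3% were higher and 8.36% lower at 24 h, and 6.94% higher and 5.38% lower at 6 h. The part of any of these cell types in the differences of Cox6a2, Cox8b and Cox7a2l was not tested.

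**Figure D5:**
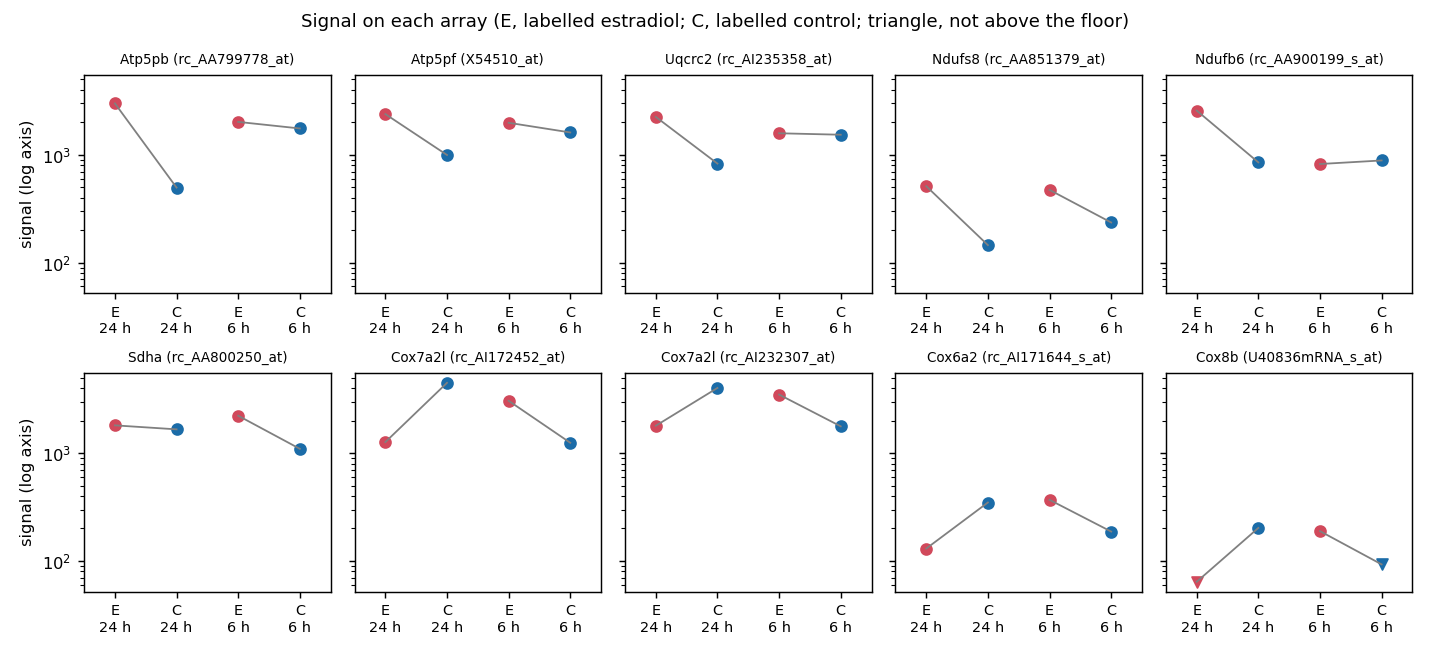
Signal, on a log axis, on the 4 arrays (E, labelled estradiol, and C, labelled control, at 24 h and at 6 h) for 10 probe sets that passed 2-fold within a time, with triangles where a signal was not above the floor. Atp5pb, Atp5pf and Uqcrc2 were low on the 24 h control, and Cox7a2l, Cox6a2 and Cox8b were low on the 24 h estradiol and the 6 h control-labelled array.

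The ubiquitous isoforms of complex IV had probe sets with both 24 h arrays above both 6 h arrays. Cox8a had the brightest probe set of the complex by its mean over the 4 arrays, with 11279 with estradiol and 12244 with vehicle at 24 h, and 8813 on the estradiol-labelled and 10115 on the control-labelled array at 6 h. For Cox6a1 the brightest probe set read 9350 with estradiol and 6283 with vehicle at 24 h, and 5793 on the estradiol-labelled and 6145 on the control-labelled array at 6 h, so the 24 h control lay near the 6 h arrays. Cox4i1, the common form of subunit 4, had a probe set with 12189 with estradiol and 12521 with vehicle at 24 h, and 7288 on the estradiol-labelled and 7551 on the control-labelled array at 6 h. Its relative Cox4i2, known from lung and low oxygen, read 995 with estradiol and 1012 with vehicle at 24 h, and 868 and 870 on the estradiol-labelled and control-labelled arrays at 6 h, so the arrays of a time hardly differed. Cox6b1, a subunit that faces the intermembrane space, read 1388 with estradiol and 1121 with vehicle at 24 h, and 798 on the estradiol-labelled and 558 on the control-labelled array at 6 h. Its 24 h control was 2.01-fold brighter than its 6 h control, and in its brighter probe set the difference was 0.65 log2 units. Cox5b, a zinc-binding subunit, had a probe set 2.06-fold brighter on the 24 h than on the 6 h estradiol-labelled array, and in Cox5a, which was dim, both 24 h arrays were below both 6 h arrays.

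The ATP synthase held the largest differences with estradiol at 24 h, and these lay in its peripheral stalk, the part that holds the catalytic head still against the membrane rotor. Atp5pb, subunit b of the stalk on chromosome 2, read 2999 with estradiol and 497 with vehicle at 24 h, and 2020 on the estradiol-labelled and 1756 on the control-labelled array at 6 h. The 24 h control was far below the other 3 arrays, and the difference with estradiol was 6.04-fold. Atp5pf, coupling factor 6 of the stalk on chromosome 11, has a pair of probe sets. The first read 2388 with estradiol and 996 with vehicle at 24 h, and 1983 on the estradiol-labelled and 1612 on the control-labelled array at 6 h. The second read 1965 with estradiol and 376 with vehicle at 24 h, and 1487 on the estradiol-labelled and 945 on the control-labelled array at 6 h. They were 2.40-fold and 5.22-fold higher with estradiol, and in both the 24 h control was the low array.

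Atp5pb and the second probe set of Atp5pf were dimmer on the 24 h control than on each other array by 2-fold or more, as were 3.02% of all measured probe sets. Against the 6 h control, the 24 h control was 3.54-fold lower for Atp5pb and 2.51-fold lower for that probe set. The 6 h control is 1 of the arrays used to pick them, so a fold of at least 2 was fixed by the choice. Compared with the 6 h control instead, the 24 h estradiol array was 0.77 log2 units higher for Atp5pb. The other stalk subunits did not stand low there. Atp5po, which attaches the stalk to the head, read 8303 with estradiol and 6731 with vehicle at 24 h, and 4216 on the estradiol-labelled and 5335 on the control-labelled array at 6 h. Atp5pd, subunit d, read 3864 with estradiol and 2546 with vehicle at 24 h, and 1987 on the estradiol-labelled and 1297 on the control-labelled array at 6 h, with both 24 h arrays high. In the limma fit of all arrays its time coefficient was 0.97 ± 0.34 log2 units (SE, adjusted p = 0.938). The treatment coefficient of the second Atp5pf probe set in that limma fit was 1.52 ± 0.55 (SE, adjusted p = 0.999), higher under the estradiol label at both times.

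The catalytic head differed less. Atp5f1b, the catalytic beta subunit, was the brightest member of complex V, with 8194 with estradiol and 7918 with vehicle at 24 h, and 6643 on the estradiol-labelled and 7864 on the control-labelled array at 6 h. Atp5f1a, the alpha subunit, read 2611 with estradiol and 1948 with vehicle at 24 h, and 1626 on the estradiol-labelled and 1295 on the control-labelled array at 6 h. The array labelled estradiol at 6 h was thus the low one for the beta subunit and the control label for the alpha subunit. Atp5if1, the inhibitor that keeps the synthase from splitting ATP, has 3 measured probe sets. The brightest read 1582 with estradiol and 1189 with vehicle at 24 h, and 1259 on the estradiol-labelled and 1225 on the control-labelled array at 6 h, with a difference of 0.41 at 24 h, and another differed by 0.48. The dimmest was lower with estradiol by a bound of -0.59, its estradiol array being at the floor.

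Genes around the chain were read from lists. Of 23 measured probe sets of mitochondrial carriers, channels, uncoupling proteins and creatine kinases, 8 were at least 2-fold higher with estradiol at 24 h and 0 lower, with a median of 0.55, and at 6 h 1 was higher and 1 lower. For these lists, the shares of all measured probe sets are 8.3% higher and 8.36% lower at 24 h, and 6.94% higher and 5.38% lower at 6 h. Slc25a5, the carrier that exchanges ADP for ATP, read 8182 with estradiol and 3374 with vehicle at 24 h, and 2707 on the estradiol-labelled and 5805 on the control-labelled array at 6 h. Ucp2, an uncoupling protein relative, read 1426 with estradiol and 343 with vehicle at 24 h, and 1278 on the estradiol-labelled and 1344 on the control-labelled array at 6 h. Slc25a5 thus also had a low signal on the 6 h array labelled estradiol, and this Ucp2 probe set on the 24 h control alone, as Atp5pb was. A second Ucp2 probe set was not low there, with 448 with estradiol and 494 with vehicle at 24 h, and 507 on the estradiol-labelled and 597 on the control-labelled array at 6 h.

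Of 29 measured probe sets of the tricarboxylic acid cycle and pyruvate dehydrogenase, 5 were at least 2-fold higher and 1 lower with estradiol at 24 h, and 7 higher and 0 lower with that label at 6 h. Pdha1, the E1 alpha subunit of pyruvate dehydrogenase, read 3133 with estradiol and 372 with vehicle at 24 h, and 2350 on the estradiol-labelled and 1780 on the control-labelled array at 6 h in one probe set. Its other probe set went the other way at 24 h, with 877 with estradiol and 1070 with vehicle (log2 difference -0.29), so the probe sets of Pdha1 did not share the difference. Idh2, the mitochondrial isocitrate dehydrogenase, read 2886 with estradiol and 3123 with vehicle at 24 h, and 4491 on the estradiol-labelled and 1507 on the control-labelled array at 6 h in its brighter probe set. Here the 6 h control label was the low array, as for Sdha. Of 23 probe sets for electron entry, assembly and protein import, 4 were higher and 0 lower with estradiol at 24 h, and 0 higher and 5 lower with the label at 6 h. These were mostly chaperones, such as Hspe1, which read 6049 with estradiol and 2594 with vehicle at 24 h, and 1865 on the estradiol-labelled and 4179 on the control-labelled array at 6 h. Both 24 h arrays were above both 6 h arrays for 3 of the 23 carrier, 7 of the 29 cycle and 4 of the 23 import probe sets, where 14.2% of all measured probe sets had this order.

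Of 15 measured probe sets of regulators of mitochondrial genes, 1 was higher and 0 lower with estradiol at 24 h, and 1 higher and 3 lower with the label at 6 h. The higher one was the same Thra probe set at both times, not above the floor on either control array, and the lower ones were of Myc and Ppard. A brighter Thra probe set went the other way at 24 h, with 819 with estradiol and 1409 with vehicle (log2 difference -0.78). At 6 h that brighter one read 1506 on the estradiol-labelled and 765 on the control-labelled array. Esrra, the estrogen-related receptor alpha, passed 2-fold at neither time. Its 1 measured probe set read 279 with estradiol and 219 with vehicle at 24 h, with both 24 h arrays high. At 6 h it read 134 on the estradiol-labelled and 122 on the control-labelled array. The other Esrra probe set was above the floor on no array. Of 14 probe sets of antioxidant enzymes, 0 were higher and 3 lower with estradiol at 24 h, and 2 higher and 1 lower with the label at 6 h. Catalase, Cat, which removes hydrogen peroxide, read 229 with estradiol and 590 with vehicle at 24 h, and 453 on the estradiol-labelled and 145 on the control-labelled array at 6 h, the order of arrays seen for Cox7a2l, in one of its probe sets. Of 9 probe sets of epithelial markers 7 were higher with estradiol at 24 h and 4 lower with the label at 6 h, and their part in any member's difference was not tested.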

How the data were processed

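RNA of 4 pools was measured on 1 array each. The intensities are those the authors deposited, made with MAS5 per the submitters' processing notes, with the version not given in the sources used here. Each deposited column has a 2% trimmed mean of 500. Per the file headers, the arrays share a lot and differ in scan day. Values under an array's 40th percentile were set to it, as a floor, before taking log2. A call was a log2 difference of 1 or more with the brighter array above its floor. No fold is given where neither array exceeds its floor, and such a probe set enters medians as the log2 ratio of the floors. The number of arrays limits the precision.

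Of 8799 probe sets 7018 have 1 gene symbol in the platform annotation, 308 several and 1473 none, and all 56 member genes matched RefSeq by gene identifier. limma 3.58.1 in R 4.3.3 fitted treatment and time on the floored log2 values, with Benjamini-Hochberg adjustment over 6157 probe sets and a threshold of 0.05. Values in every array are given for members past 2-fold in a comparison, the brightest of each complex, isoform pairs and genes whose probe sets differ by over 1 log2 unit. Genes outside the members come from lists, at most 4 per list and comparison by size, and Esrra was named after its values were seen. Members and lists were chosen with earlier results of these data known. Alternatives were other scalings, floors, fold rules, probe set choices and the other control. Python 3.11.15 was used.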

Additional observations from a re-analysis of the deposited data

Results flagged for a closer look

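Cox7a2l, the supercomplex factor of complex IV, drew attention because its difference between the estradiol and control labels ran in opposite directions at the 2 times. In its first probe set the log2 difference was -1.83 at 24 h and 1.29 at 6 h. The difference between the times was not tested, as each rests on 1 array per group. The labels at 6 h go against Igf1, Pgr, S100g and Hsd11b2, and with them the direction at 6 h.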

How the results depend on the processing

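Each alternative was run on all members. Calls by fold over all probe sets were not counted under the alternatives. The member counts by fold thus show only how they move with the setting. The values as deposited gave the same results, since the columns already had the common trimmed mean. Scaling to a common median moved the 24 h median of all probe sets to -0.03, against -0.17, and that of the members to 0.19. With a floor at the 20th percentile 9 members were lower at 24 h, and at 6 h 7 were higher and 1 lower. With one at the 60th, 2 were lower at 24 h and 2 higher at 6 h, and with a pseudocount of 32 in place of a floor 2 were higher at 6 h. With the brightest probe set per gene 2 genes were lower at 24 h, 1 was higher at 6 h, and 4 were higher and 1 lower between the controls. With probe sets averaged by gene 3 were higher and 2 lower at 24 h, 2 higher at 6 h and 3 higher between the controls. Without special probe set types, that is names ending in _s_at and the like, 2 were lower at 24 h and 1 between the controls. A 1.5-fold rule gave 12 higher and 9 lower at 24 h, 15 and 2 at 6 h, and 32 and 7 between the controls. A 3-fold rule gave 1 lower at 24 h, 0 higher at 6 h, and 1 higher and 1 lower between the controls.

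Set against the 6 h control array, the 24 h counts for estradiol were 12 higher and 2 lower, the median was 0.47, and the Cox7a2l probe sets turned to 0.021 and 0.019. Set against the 24 h control array, the 6 h median for the estradiol label turned to -0.25, Ndufv3 to -0.071 and the first Cox7a2l probe set to -0.55. These turns come with the change of the control array, and their cause was not tested. The count with both 24 h arrays above both 6 h arrays, an order counted after the data were seen, was 60 of 96 with a common median (20.8% of all probe sets) and 46 with quantile normalization (16.3%). It was 31 of 56 genes by their brightest probe set, 30 by the mean, and 26 of 57 probe sets without special types. These choices were not counted over all genes or probe sets. Leaving out the 2 members low on the 24 h control, also chosen after the data were seen, left 0 lower between the controls. limma called 0 members under every setting run. Among probe sets measured on at least 1 array, 1 to 2 members had an unadjusted p under 0.05 for treatment and 0 to 6 for time. Of all such probe sets, 60 to 240 did for treatment and 118 to 359 for time. With dim probe sets kept, 5 of 102 members and 377 of 8740 probe sets did for treatment. For time these were 21 members and 602 probe sets. No paired analysis was possible because each group has 1 array and so 1 replicate number. Time, which pairs an estradiol with a control array, is a term of the limma fit.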
